A study of Rattus norvegicus with 16 samples.

Results

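The data on mucosal antimicrobial and secretory defence covered 9 genes with 12 probes, followed across stomach and middle intestine of suckling rats: the C-type lectins Reg3a, Reg3b and Reg3g, the alpha-defensins Defa5 and Defa24, the lysozyme Lyz2, the group IIA phospholipase Pla2g2a, the siderophore-binding lipocalin Lcn2 and the polymeric immunoglobulin receptor Pigr. They were taken by symbol, with every probe that carried one of the 9 symbols, from 30367 probes with 26115 distinct gene names. Of the 12 probes, 11 probes of 8 genes were well above background in the tissue channel on all 4 arrays of at least 1 group, with at least 3 values in every group, which held for 21174 of the 30367 probes. The single Reg3a probe was not tested with the others in the reported fit and is described by its flags. The arrays came from 16 tissue samples of Wistar rat pups, bred from Wistar Han parents, in 4 groups of 4. In the C groups pups received saline and in the OH groups obestatin, a peptide cut from the ghrelin precursor, at 250 nmol per kg of body weight, by gavage 2 times daily over the days 14 to 21 of life. One tissue RNA (stomach or the middle part of the small intestine) was labelled with Cy5 on each array and a pool of RNA from all animals, of both tissues, with Cy3. Pups were taken from 4 litters per treatment and the 4 animals per group hybridised were drawn at random, so litter mates can stand in 1 group. Whole organ wall was used, so that fewer cells of a type and less RNA per cell cannot be told apart.

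The mucosal surface is kept apart from its bacteria by secreted proteins. Paneth cells at the base of the small intestinal crypts release alpha-defensins, lysozyme and the group IIA phospholipase, which permeabilise or digest the bacterial envelope, and enterocytes and Paneth cells release Reg3 lectins, which bind peptidoglycan or lipid of bacteria near the epithelium. Lcn2 withholds iron by binding bacterial siderophores, and Pigr carries polymeric immunoglobulin A through the epithelial cell to the lumen. In rats Paneth cells and their products mature around weaning, and immunoglobulin in the lumen of the suckling comes largely from milk.

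Every array of C stomach was on 1 slide, and so was every array of each other group, giving 4 slides. The slides of both C groups were scanned on 1 day and those of both OH groups on another, and an effect of treatment cannot be told apart from one of slide or day of scanning. Stomach and middle intestine were set against each other on 2 separate pairs of slides, C and OH. The median raw Cy5 signal per array lay between 162.6 and 327.8, and between 69.4% and 77.6% of spots were well above background in Cy5. None of the 336 spots of the 12 probes was saturated or marked as an outlier. The median raw Cy3 signal, that of the common pool, differed between treatments. It lay between 188.2 and 195.3 on the arrays of both C groups and between 340.8 and 399.2 on those of both OH groups. The tissues bore their labels. All 13 markers of the acid-secreting and surface mucosa of the stomach passed the test as higher in C stomach than in C middle intestine. Of 15 enterocyte markers 13 passed as lower and 1 as higher. Over all probes 22.7% passed as higher and 22.3% as lower. Striated muscle RNA varied between stomach arrays, with list mean log2 ratios between -0.95 and 3.90 in C and between -0.39 and 0.73 in OH stomach, and its part in the values below was not tested.

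In rats given saline, Reg3b, Reg3g, Defa24, Lyz2, Lcn2 and Pla2g2a stood lower in stomach than in middle intestine, and Pigr stood higher in stomach by its probe outside repeated sequence. The same 7 genes differed in the same direction between the tissues of rats given obestatin. Between treatments none of the 11 probes passed the test in either tissue. Of the 11 probes, 8 passed at an adjusted p under 0.05 in C stomach against C middle intestine (limma, all 16 arrays, Benjamini-Hochberg over 21174 probes), where 44.9% of all probes tested passed. In OH stomach against OH middle intestine 8 passed too, where 38.2% of all probes passed. In each of these comparisons 8 of the 11 probes had arrays that did not overlap between the tissues, 7 lower and 1 higher in stomach, against 43.7% of all probes in C and 35.2% in OH, in either direction. The median difference over all probes was -0.01 in the C and 0.01 in the OH comparison on the log2 scale, beside which the differences of the defence genes are to be read. Values below are log2 ratios of Cy5 over Cy3, and differences are log2 differences of these ratios, unless they are said to be of Cy5 alone. Cy5 alone is the processed signal of that channel, which was dye-normalised before, so it is not free of the reference channel. The values of a group are given in the order of its replicate numbers.

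**Figure D1:**
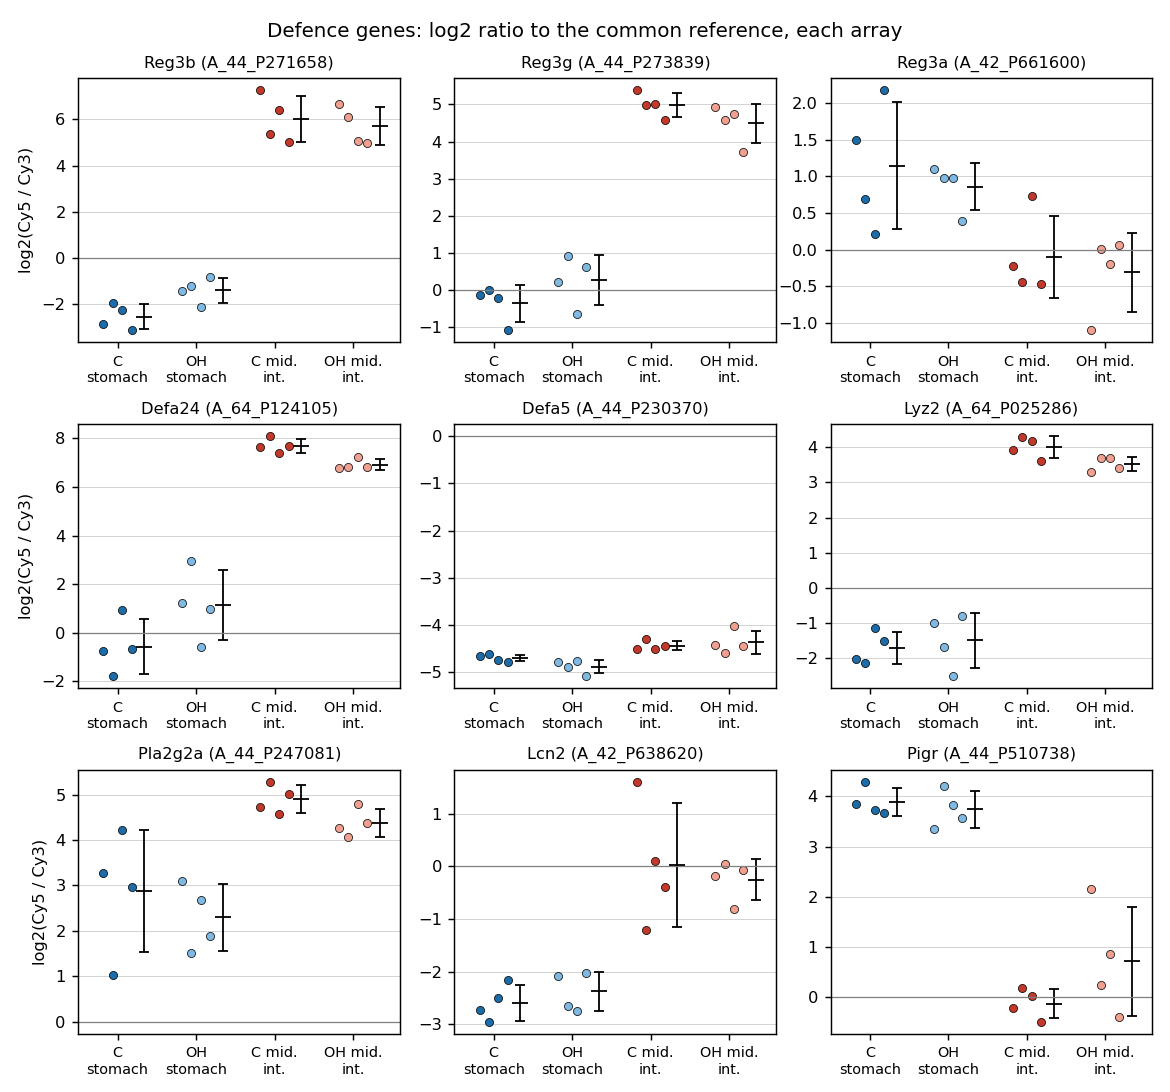
Log2 ratio of tissue RNA over the common reference (y axis, scales differ between panels) for 1 probe of each gene on every array; bars give the mean and SD of 4 arrays. Reg3b, Reg3g, Defa24 and Lyz2 do not overlap between the tissues, Defa5 stays between -5.08 and -4.02 on all 16 arrays, and Pigr is above 3.3 on all 8 stomach arrays.

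Reg3b and Reg3g encode secreted lectins, and of the 2 it is Reg3g that is best known for killing Gram-positive bacteria. The probe of Reg3b lay at chr4:112357807-112358789 on the plus strand of the rn4 build, 60 bases over a span of 983 bases and so across a splice junction, that of Reg3g at chr4:112418369-112418428 on the minus strand, and that of Reg3a at chr4:112368639-112368698 on the plus strand. The 3 genes stand together on chromosome 4. The 150 bases before each annotated start site (RefSeq, GRCr8) are shown because Reg3b and Reg3g stood high in middle intestine and Reg3a did not; capitals mark the STAT palindrome TTCNNNGAA, the NF-kB consensus and TATAAA.
Reg3b, chr4:112419626-112419775, plus strand: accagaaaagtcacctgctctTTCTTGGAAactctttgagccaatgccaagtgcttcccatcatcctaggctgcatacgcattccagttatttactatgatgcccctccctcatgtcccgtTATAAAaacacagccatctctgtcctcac
Reg3g, chr4:112484739-112484888, minus strand: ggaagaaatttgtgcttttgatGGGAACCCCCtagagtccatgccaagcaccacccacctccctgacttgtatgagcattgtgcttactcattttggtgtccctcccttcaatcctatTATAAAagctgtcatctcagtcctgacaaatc
Reg3a, chr4:112430247-112430396, plus strand: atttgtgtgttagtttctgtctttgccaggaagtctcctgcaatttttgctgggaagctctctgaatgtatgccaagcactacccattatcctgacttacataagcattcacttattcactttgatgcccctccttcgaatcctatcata
The Reg3b window held the STAT palindrome with its first base at -129 and TATAAA at -29 from the start site. The Reg3g window held the NF-kB consensus at -128 and TATAAA at -32. None of the 3 motifs stood in the Reg3a window, nor in the same window of Lcn2, Pla2g2a, Lyz2 or Pigr. Reg3a had another annotated start site downstream of the one used, and the window before it was not searched for TATAAA. The lack of TATAAA therefore holds only for the Reg3a window shown. Searched on both strands over the same 150 bases of 27457 RefSeq promoters, the STAT palindrome stood in 4.38%, the NF-kB consensus in 3.92% and TATAAA in 8.16%. A match of letters is a description and shows no binding.

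Reg3b was among the most divided genes. Its log2 ratios were -2.88, -1.93, -2.25 and -3.12 in C stomach and 7.26, 5.38, 6.41 and 5.04 in C middle intestine, so that no array of one tissue came near the other. In OH stomach they were -1.43, -1.23, -2.11 and -0.84, and in OH middle intestine 6.68, 6.09, 5.08 and 4.96. The difference between C stomach and C middle intestine was -8.57 (SE 0.49, limma adjusted p = 5.34e-09), a 379-fold lower ratio in stomach. In the OH groups it was -7.10 (SE 0.49, adjusted p = 4.03e-08), a 137-fold lower ratio. The Cy3 signal of its spots, which held the common pool, differed as well, by -1.35 between the C tissues and -1.74 between the OH tissues in scaled log2 Cy3 (limma adjusted p = 0.0585 and 0.0408). It spanned 7.9-fold over the 16 arrays, with 38 of 21174 probes of larger SD.

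Reg3g followed with a smaller ratio difference. The log2 ratios of its probe were -0.14, -0.00, -0.21 and -1.07 in C stomach and 5.38, 4.98, 5.00 and 4.59 in C middle intestine. They were 0.22, 0.91, -0.63 and 0.64 in OH stomach and 4.92, 4.59, 4.73 and 3.71 in OH middle intestine. No stomach array reached the lowest intestinal array of either treatment. The difference was -5.34 (SE 0.34, adjusted p = 1.67e-08) between the C tissues and -4.20 (SE 0.34, adjusted p = 2.31e-07) between the OH tissues (limma), and the probe was well above background on 3 of 4 C stomach arrays and on every other array.

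For Reg3g the ratio and Cy5 alone gave differences of unlike size, and the Cy3 signal of its spots was not the same from array to array. Cy3 held the same pool everywhere, yet log2 Cy3 of Reg3g was 4.41 to 5.22 on the 8 stomach arrays and 11.50, 5.53, 8.71 and 5.43 on the C middle intestine arrays. On the OH middle intestine arrays log2 Cy3 was 12.15, 11.01, 6.02 and 5.67. The log2 Cy5 signal on the same arrays was 16.88, 10.51, 13.71 and 10.02 for C and 17.07, 15.60, 10.75 and 9.38 for OH middle intestine, so the arrays with high Cy5 were the arrays with high Cy3. Over all 16 arrays Cy3 of Reg3g, scaled to the array's 75th percentile, spanned 178-fold, and only 6 of 21174 probes had a larger SD. What made the reference channel of these spots move with the tissue channel was not tested. In Cy5 alone, scaled to the array's 75th percentile, Reg3g was 341-fold lower in C stomach than in C middle intestine (log2 difference -8.42, SE 1.61, limma adjusted p = 0.000772) and 255-fold lower in OH stomach (log2 difference -8.00, adjusted p = 0.00124). Raw Cy5 of Reg3g was only 58.8 to 80.7 in C stomach and 63.7 to 115.2 in OH stomach, at or near background. The size of its folds is therefore uncertain. Reg3b in Cy5 alone was 947-fold lower in C stomach and 459-fold lower in OH stomach.

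**Figure D2:**
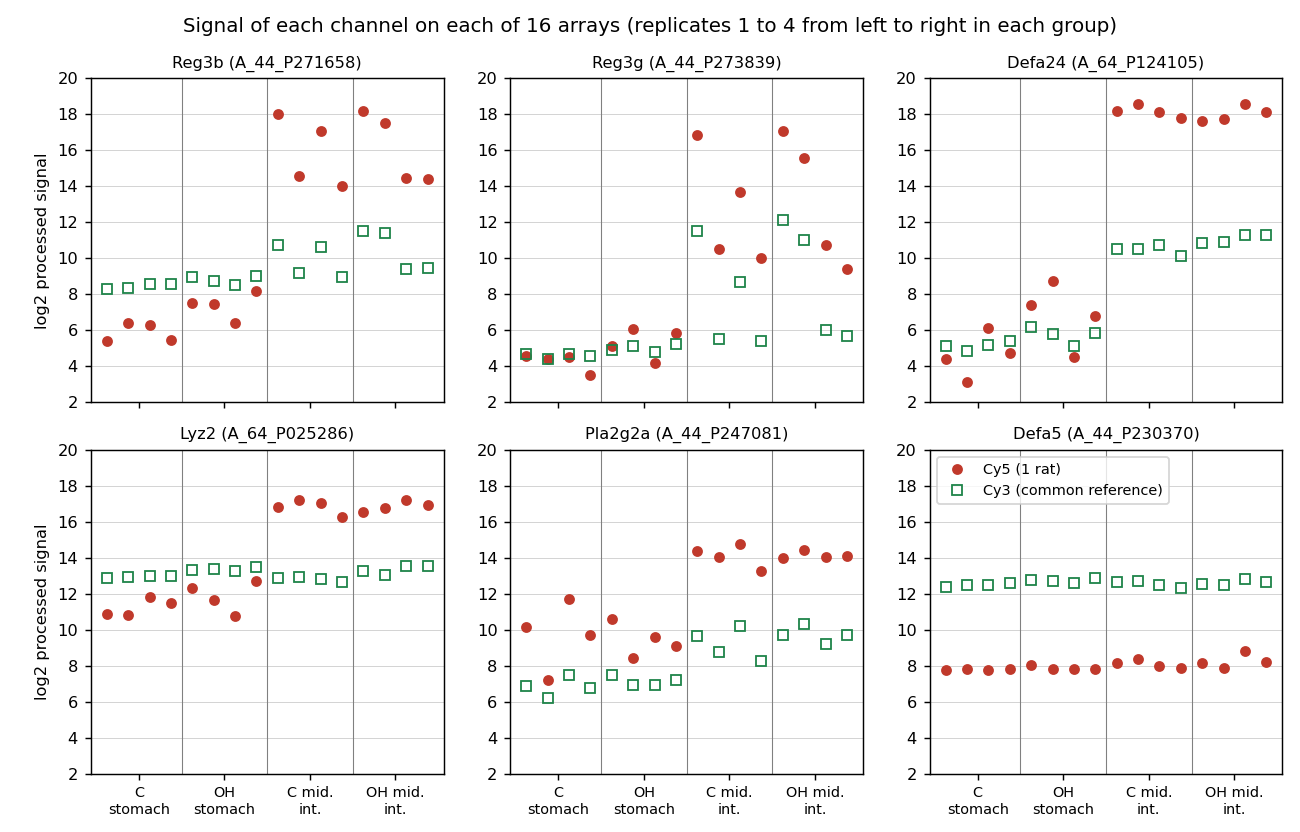
Log2 processed signal (y axis) of the tissue channel (Cy5, filled) and of the common reference channel (Cy3, open) for 6 genes on 16 arrays. The reference signal of Reg3g, Defa24 and Pla2g2a is higher on arrays of middle intestine, from 4.41 to 5.22 on stomach arrays up to 12.15 for Reg3g, while that of Lyz2 lies between 12.64 and 13.54 and that of Defa5 between 12.34 and 12.90 on all arrays.

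Within middle intestine the spread of the lectins depended on the measure. By ratio Reg3g spanned 1.73-fold in C, where 8126 of 21174 probes had a larger SD, and 2.3-fold in OH, where 2734 did. Reg3b spanned 4.64-fold in C and 3.28-fold in OH by ratio, with 301 and 749 probes of larger SD. Scaled Cy3 of Reg3g spanned 64.6-fold in C and 97.4-fold in OH. In Cy5 alone both lectins varied far more. The SD of scaled log2 Cy5 of Reg3g was 3.13 in C and 3.82 in OH middle intestine, and in each group only 2 of 21174 probes had a larger SD. Between the lowest and the highest array lay 95.7-fold in C and 223-fold in OH. For Reg3b log2 Cy5 was 18.02, 14.56, 17.06 and 14.01 in C and 18.18, 17.50, 14.49 and 14.40 in OH middle intestine. Those are ranges of 13.3-fold in C, with 37 probes of larger SD, and 15-fold in OH, with 27 probes of larger SD. The arrays of C replicates 1 and 3 and of OH replicates 1 and 2 had the higher signal of both lectins. Defa24 in the same tissue spanned 1.41-fold in C and 1.64-fold in OH in Cy5, and Lyz2 1.57-fold and 1.34-fold. By ratio Defa24 spanned 1.61-fold in C and 1.38-fold in OH and Lyz2 1.63-fold and 1.31-fold, so that in C the ratio did not set Reg3g apart from them.

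The list mean log2 ratio of 8 goblet cell markers was 1.42, 0.97, 1.51 and 0.49 on the C and 1.69, 1.60, 0.64 and 0.59 on the OH middle intestine arrays. The 15 enterocyte markers had list means of -0.28, 0.05, 0.48 and 0.06 on the C and 0.85, 1.39, -0.66 and 0.15 on the OH arrays. The goblet markers were highest on the arrays of C replicates 1 and 3 and OH replicates 1 and 2, where the lectins were highest, and their part in the spread of the lectins was not tested. The 3 genes nearest to Reg3g over the 8 intestinal arrays in scaled Cy5, a choice made after the values were seen, were Reg1a, Duoxa2 and Slc13a1, with root mean square differences between centred profiles of 0.737 for Reg1a and 1.41 for Duoxa2. Reg1a, a pancreatic and intestinal lectin of the same family, had scaled log2 Cy5 of 5.37, -0.67, 1.78 and 0.12 in C and 4.85, 3.34, -0.02 and -1.94 in OH middle intestine. Nearest to Reg3b by the same measure were Papss2 (0.589), Zg16 (0.721) and Anxa10 (0.806). Anxa10 stood higher in C stomach than in C middle intestine by a log2 ratio difference of 5.65. Zg16, a lectin of goblet cell granules, had scaled log2 Cy5 of 3.29, 1.01, 3.90 and 1.72 in C and 3.51, 3.62, 0.15 and 1.28 in OH middle intestine. In ratio over all 16 arrays the nearest were Mttp (0.516), the lipid transfer protein of chylomicron assembly, Nr5a2 (0.524) and B3gnt5 (0.538) to Reg3g, and Clrn3 (0.799), Ppp1r14d (0.827) and Clca4 (0.861) to Reg3b.

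**Figure D3:**
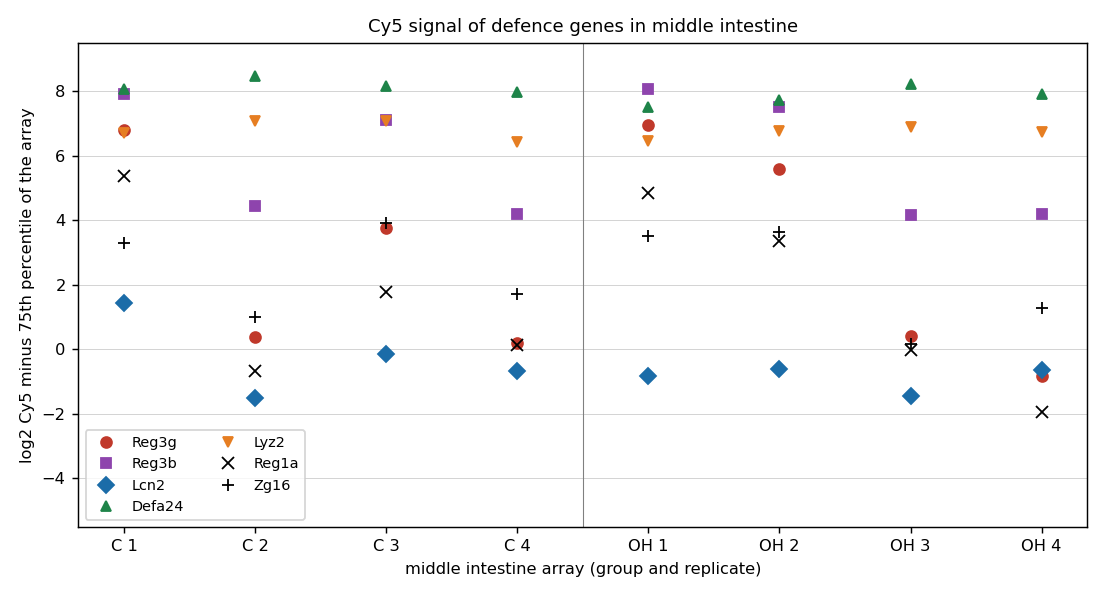
Scaled log2 Cy5 signal (y axis, array's 75th percentile at 0) of 5 defence genes and of Reg1a and Zg16 on each of the 8 middle intestine arrays. In this channel Reg3g spans 95.7-fold in C and 223-fold in OH and Defa24 and Lyz2 at most 1.64-fold, whereas by ratio Reg3g spans 1.73-fold in C beside 1.61-fold for Defa24 and 1.63-fold for Lyz2.

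For Reg3a the values lay the other way. Its probe was well above background on 3 of 4 C stomach, 3 of 4 OH stomach and 0 of 8 middle intestine arrays. The log2 ratios were 1.5, 0.69, 0.21 and 2.17 in C stomach and 1.1, 0.97, 0.98 and 0.38 in OH stomach. In middle intestine, where the signal was not above background, they lay between -1.1 and 0.73. Scaled log2 Cy5 was -6.03 ± 0.77 in C stomach and -7.01 ± 0.26 in C middle intestine, and -6.40 ± 0.67 in OH stomach and -7.59 ± 0.37 in OH middle intestine (SD, n = 4). No fold is given, since the intestinal signal was not well above background and a lower bound depended on the normalisation.

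The alpha-defensins gave opposite pictures. Defa24 (probe at chr16:75031404-75031463, rn4, minus strand) had log2 ratios of 7.64, 8.08, 7.40 and 7.66 in C middle intestine and 6.77, 6.81, 7.24 and 6.82 in OH middle intestine. In C stomach they were -0.74, -1.77, 0.94 and -0.68, and in OH stomach 1.23, 2.95, -0.59 and 0.98. The tissues were far apart in both treatments. The difference was -8.26 (SE 0.60, limma adjusted p = 7.16e-08) in C, 306-fold, and -5.77 (SE 0.60, adjusted p = 3.4e-06) in OH, 54.4-fold. Without OH stomach replicate 2 the OH difference was -6.37 (adjusted p = 6.17e-07). The reference channel again moved: log2 Cy3 of the Defa24 spots was 4.87 to 6.20 on stomach and 10.13 to 11.32 on intestinal arrays, a log2 difference of -5.23 between the C tissues in scaled Cy3. In Cy5 alone the difference was -13.46 (adjusted p = 1.36e-09) in C and -11.23 in OH, and the 8 intestinal arrays lay between 17.62 and 18.60 in log2 Cy5. The probe was well above background on 3 of 4 C stomach arrays, where raw Cy5 was 60.4 to 154.4 over all 4. The size of the Defa24 fold in C is therefore uncertain.

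On the array of OH stomach replicate 2, where Defa24 had its highest stomach ratio of 2.95, the 10 other Paneth cell markers had a list mean log2 ratio of 0.76, and on the other OH stomach arrays it was -1.16, -0.48 and -0.88. In C stomach that mean lay between -0.77 and -0.31 and in the intestinal groups between 2.55 and 3.52. All 10 of those markers were above background on that array, against 7 of 10 on each other OH stomach array, and their part in the Defa24 signal of stomach was not tested. Nearest to Defa24 over 16 arrays in ratio were the defensin-like gene Defal1, with a root mean square difference of 0.88, the Paneth and goblet lectin Itln1 with 0.968, and the intestinal transcription factor Cdx2 with 0.998.

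Defa5 (probe at chr16:75024441-75024500, rn4, minus strand) showed no such division. Its log2 ratios were -4.65, -4.62, -4.74 and -4.78 in C stomach, -4.78, -4.89, -4.77 and -5.08 in OH stomach, -4.50, -4.30, -4.50 and -4.45 in C and -4.42, -4.60, -4.02 and -4.44 in OH middle intestine. Only 24 of 21174 probes, 0.113%, had a lower mean ratio over the 16 arrays. The reference signal of this probe was bright and level, at a log2 Cy3 of 12.34 to 12.90, and the tissue signal was low on every array, at a log2 Cy5 of 7.75 to 8.81. The labels give stomach and middle intestine as the tissues of the pool. A dye bias of the probe and the content of the pool cannot be told apart here, since no dyes were swapped. The probe passed between the OH tissues (difference -0.51, SE 0.12, limma adjusted p = 0.00404, 1.42-fold) and not between the C tissues (difference -0.26, SE 0.12, adjusted p = 0.0944). The OH difference did not hold when ratios were scaled between arrays, where it was 0.29 with an adjusted p of 0.812. Nearest to Defa5 in ratio over 16 arrays were Cyp2b3 (0.084), Top3b (0.099) and Pold3 (0.099).

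The first 30 bases of both defensin probes are shown because genes so close on chromosome 16 gave such unlike signals. In an alignment without gaps the 60-base probes shared at most 18 bases with each other. Probes were aligned with probes and not with transcripts, so these counts cannot show whether a probe binds RNA of another gene. Among 20 probes of defensins, Reg lectins and the other genes, the most bases were shared by Defa5 with Defa11, 33 of 41 aligned, and by Defa24 with Defa7, 25 of 57 aligned.
Defa24: ttctgaggccaccgatgctgatgttgatga
Defa5: cgctgagcactccgaccaagaagaatccat
Of the other alpha-defensins on the array, Defa10 (-7.15, adjusted p = 1.3e-08), Defa6 (-6.97, adjusted p = 1.8e-05), Defal1 (-6.90, adjusted p = 1.1e-05) and Defa8 (-6.65, adjusted p = 4.5e-06) had the largest differences between C stomach and C middle intestine among antimicrobial effectors outside the 9 genes (limma). Their transcripts are alike in sequence, so that the share of each gene in a probe's signal is uncertain.

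Lyz2 is the lysozyme of macrophages and, in rat, of other cells. By ratio it spanned 1.98-fold in C and 3.3-fold in OH stomach, and 1.63-fold in C and 1.31-fold in OH middle intestine. Its probe (chr7:56607738-56607797, rn4, minus strand) had log2 ratios of -2.03, -2.14, -1.16 and -1.51 in C stomach and 3.93, 4.31, 4.19 and 3.60 in C middle intestine. In OH stomach they were -1.01, -1.69, -2.52 and -0.80 and in OH middle intestine 3.31, 3.70, 3.70 and 3.40. Stomach was lower on every array. The difference was -5.72 (SE 0.32, limma adjusted p = 4.5e-09) in C, 52.7-fold, and -5.03 (SE 0.32, adjusted p = 1.79e-08) in OH, 32.7-fold. The reference moved little here, with log2 Cy3 of 12.64 to 13.54 over 16 arrays and a scaled Cy3 difference between the C tissues of 0.23 (limma adjusted p = 0.00409). Cy5 alone gave 43.9-fold in C and 34.7-fold in OH. Of 11 other macrophage markers 2 passed as lower in C stomach, where 22.3% of all probes passed as lower. The list mean log2 ratio of these markers was -1.76 to -1.03 in C stomach and -1.17 to -0.74 in C middle intestine. In the same comparison 7 of the 10 Paneth markers and all 8 T cell and pan leukocyte markers passed as lower in C stomach. The part of these cells in the Lyz2 signal was not tested. Nearest to Lyz2 in ratio over 16 arrays were Fam26f (0.425), Epsti1 (0.487) and Casp1 (0.509), the latter the protease that activates interleukin 1 beta.

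Pla2g2a, which hydrolyses the phospholipids of bacterial membranes, had log2 ratios above 0 in both tissues. Of 21174 probes, 21168 had a lower mean ratio over the 16 arrays. For Defa24 it was 21171, for Reg3g 21145 and for Reg3b 21106. As for Defa5, a dye bias of the probe and the content of the pool cannot be told apart. These ratios are therefore not read as levels against the pool. Its probe (chr5:157657033-157657092, rn4, plus strand) had log2 ratios of 3.27, 1.03, 4.23 and 2.96 in C stomach and 4.73, 5.28, 4.58 and 5.01 in C middle intestine. In OH stomach they were 3.1, 1.51, 2.69 and 1.88 and in OH middle intestine 4.27, 4.07, 4.80 and 4.38. No stomach array reached the lowest intestinal array of its treatment. The difference was -2.02 (SE 0.52, limma adjusted p = 0.00555, 4.07-fold) in C and -2.08 (SE 0.52, adjusted p = 0.00526, 4.24-fold) in OH. The pool signal moved with the tissue here too, at a log2 Cy3 of 6.20 to 7.50 on stomach and 8.26 to 10.34 on intestinal arrays, and in Cy5 alone the difference was 19.6-fold in C and 27.7-fold in OH.

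C stomach arrays differed among themselves in Pla2g2a by 20.6-fold in Cy5, with 75 of 21174 probes of larger SD, and replicate 2 was the lowest. Without that array the ratio difference between the C tissues was -1.41 (limma adjusted p = 0.00796). Nearest to Pla2g2a in ratio over 16 arrays were the interferon-induced transcription factor Irf1 (0.526), Pla2g2d (0.559) and Ppm1n (0.563). Of 8 other members of the secretory phospholipase A2 list that were tested, Pla2g1b, the pancreatic enzyme (7.13, adjusted p = 2.7e-08), and Pla2g10 (4.01, adjusted p = 1.4e-07) were higher in C stomach than in C middle intestine, and Pla2g2d (-1.84, adjusted p = 0.0033) was lower. Their median difference was 0.00, beside -0.01 over all probes, of which 22.7% passed as higher and 22.3% as lower in C stomach. Pancreatic acinar markers moved the same way as Pla2g1b, with 10 of 15 passing as higher and 1 as lower in C stomach, and a list mean log2 ratio of -0.68 to -0.19 there against -3.39 to -3.11 in C middle intestine.

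Lcn2, made by neutrophils and by epithelium under inflammatory stimulus, had lower ratios in stomach than in middle intestine. Its probe (chr3:11511592-11511651, rn4, minus strand) had log2 ratios of -2.73, -2.95, -2.51 and -2.15 in C stomach and -2.07, -2.65, -2.74 and -2.03 in OH stomach. In C middle intestine they were 1.60, -1.20, 0.10 and -0.40, and in OH middle intestine -0.18, 0.05, -0.81 and -0.07. The difference was -2.61 (SE 0.44, limma adjusted p = 0.000237, 6.11-fold) in C and -2.12 (SE 0.44, adjusted p = 0.00148, 4.35-fold) in OH. The array of C middle intestine replicate 1 held the highest value. Without it the C difference was -2.09 (adjusted p = 0.000151).

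Within C middle intestine Lcn2 spanned 7.68-fold in Cy5, with 183 of 21174 probes of larger SD. The list mean log2 ratio of 7 neutrophil markers was -1.56 on the array of C replicate 1 and -2.87, -2.73 and -3.0 on the other 3 arrays. Their part in the Lcn2 signal was not tested, and 1 of the 7 passed as lower in C stomach than in C middle intestine. Nearest to Lcn2 over 16 arrays in ratio were Igtp (0.457), an interferon-induced GTPase, Rassf4 (0.508) and Psmb10 (0.521), an immunoproteasome subunit. Of 7 siderophore and iron partners tested, 3 were higher in C stomach and none lower, where 22.7% of all probes passed as higher and 22.3% as lower: the iron hormone Hamp (5.02, adjusted p = 5.5e-10), the haem carrier Hpx (1.45, adjusted p = 0.00024) and the transferrin receptor Tfrc (1.34, adjusted p = 0.0048).

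Pigr had 4 probes, and they disagreed. The probe A_44_P510738 (chr13:43802502-43802936, rn4, plus strand) had log2 ratios of 3.86, 4.29, 3.73 and 3.67 in C stomach and 3.36, 4.22, 3.83 and 3.56 in OH stomach. They were -0.22, 0.19, 0.03 and -0.48 in C middle intestine and 2.16, 0.24, 0.86 and -0.40 in OH middle intestine. By this probe stomach lay above intestine on every array. The difference was 4.01 (SE 0.40, limma adjusted p = 1.82e-06, 16.1-fold) in C and 3.03 (SE 0.40, adjusted p = 3.13e-05, 8.16-fold) in OH, and in Cy5 alone 22.1-fold and 17.3-fold.

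The other 3 probes lay further along the gene between chr13:43804765 and chr13:43804908 and gave far smaller differences. The probe A_64_P102158 had log2 ratios of 0.51, 1.28, 0.69 and 0.56 in C stomach and 0.03, 0.41, -0.54 and 0.52 in C middle intestine, which overlap. Its difference was 0.66 (SE 0.25, limma adjusted p = 0.0476), and passed in 9 of 43 settings. In Cy5 alone it was 0.37 (adjusted p = 0.253). The probes A_64_P090739 and A_64_P023120 had differences of 0.54 (adjusted p = 0.103) and 0.35 (adjusted p = 0.266) in C, and none of the 3 passed in OH, where the differences were 0.29 to 0.41. The start of each probe is shown because the letters set these 3 apart from the first; capitals mark the longest run of GAG.
Pigr A_44_P510738: ccagagtccgacatcggaagaatgtagacc
Pigr A_64_P102158: GAGGAGGAGGAGGAGgaagaggaggaggag
Pigr A_64_P090739: gaaGAGGAGGAGGAGGAGgaagaagaggag
Pigr A_64_P023120: ggaggagaaggaggaaGAGGAGGAGGAGga
Kcng1 A_64_P104301: aggaagaagaagaagaagGAGGAGGAGGAG
All 60 bases of the 3 probes were A or G, which held for 22 probes of the 30367. The other 19, all of other genes and all tested, had differences between C stomach and C middle intestine of -0.73 to 1.11 with a median of 0.75, and 17 of them were above 0. The gene nearest in ratio to A_64_P102158 over 16 arrays was Kcng1, a potassium channel subunit, with a root mean square difference of 0.109, and its probe was one of those 22. Lmnb1 (0.151) and Map3k3 (0.191) followed. The log2 ratios of the Kcng1 probe were 0.69, 1.59, 0.93 and 0.67 in C stomach and 0.14, 0.47, -0.34 and 0.60 in C middle intestine. The level of Pigr is therefore given here by A_44_P510738, and the share of Pigr RNA in the signal of the 3 repeat probes was not tested.

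**Figure D4:**
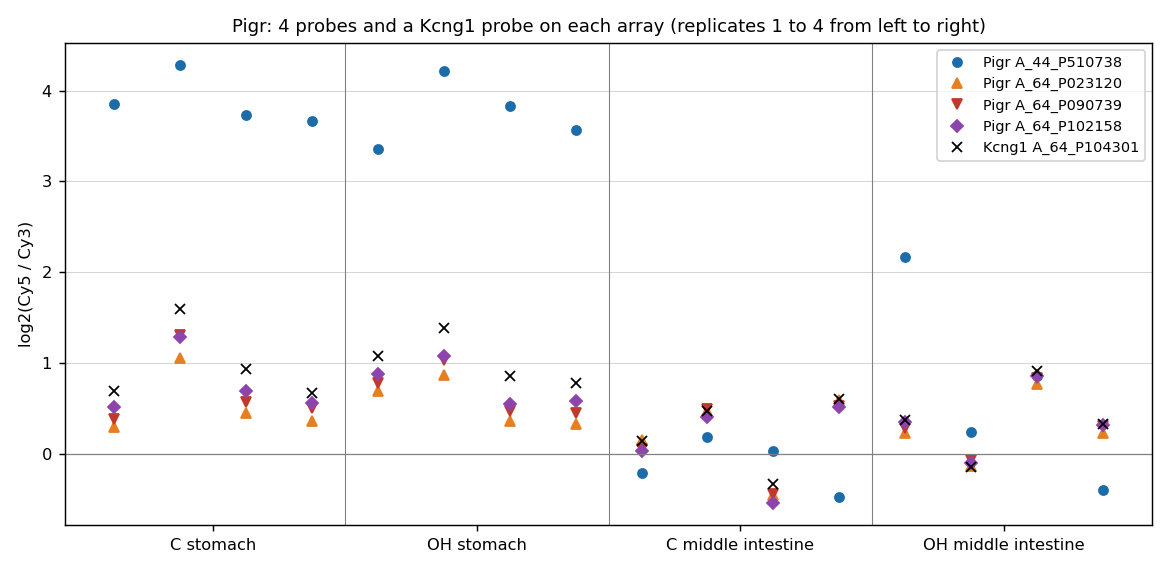
Log2 ratio (y axis) of the 4 Pigr probes and of the Kcng1 probe A_64_P104301 on each array. A_44_P510738 stands between 3.36 and 4.29 on the 8 stomach arrays, whereas the 3 repeat probes follow the Kcng1 probe on all 16 arrays.

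Pigr ligands and the cells that make them were little represented. Of the 26 genes of the secretory antibody list 17 were on the array and 9 were tested. Tnfsf13, a plasma cell survival factor (1.17, adjusted p = 0.00044), Sdc1 (1.13, adjusted p = 0.0007) and Xbp1 (0.56, adjusted p = 0.044) were higher in C stomach, the latter named after its value was seen, and Prdm1 (-1.63, adjusted p = 0.0011) and B2m (-1.36, adjusted p = 0.019) were lower. Prdm1 is the regulator of plasma cell differentiation and is also known in the intestinal epithelium of sucklings, and B2m is the partner chain of the neonatal Fc receptor. The list median was 0.43, beside -0.01 over all probes, of which 22.7% passed as higher and 22.3% as lower in C stomach.

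Among antimicrobial effectors outside the 9 genes 33 were tested, of which 16 passed as lower and 7 as higher in C stomach than in C middle intestine (22.3% and 22.7% of all probes passed lower and higher), and 15 and 6 in OH. The list median was -0.95 in C and -0.53 in OH. The effectors higher in C stomach included Hamp and Defb1, the epithelial beta-defensin (5.05, adjusted p = 4.6e-07), the latter named after its value was seen. Of 28 sensors and cytokine signalling genes 8 passed as lower and 5 as higher in C stomach. Those with the largest differences were Nlrp6, an inflammasome sensor of intestinal epithelium (-3.96, adjusted p = 1.7e-12), Il22ra2, the soluble interleukin 22 antagonist (-3.72, adjusted p = 0.00023), Il1b (-2.66, adjusted p = 3.1e-07) and Il22ra1, the interleukin 22 receptor chain (-2.05, adjusted p = 2.9e-05). Their list median was 0.00. Of 10 oxidant enzymes 2 passed as higher, the epithelial oxidase Duox2 (2.94, adjusted p = 0.038) and the dual oxidase maturation factor Duoxa1 (1.33, adjusted p = 0.00037), and 1 as lower, Noxo1 (-1.22, adjusted p = 0.0025), in C stomach.

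The comparison of treatments asks whether obestatin in the gut lumen altered these genes. In stomach none of the 11 probes passed, and neither did any of the 21174 probes tested (0% of all probes; 10.6% had an unadjusted p under 0.05 in limma, and 37 probes, 0.175%, passed in Cy5 alone). The arrays of the groups overlapped in ratio for all 11 probes, whereas 7.6% of all probes did not overlap. The largest difference was that of Defa24, 1.71 higher in OH stomach (95% interval 0.41 to 3.00, adjusted p = 0.373, exact permutation p = 0.057, two-sided), with 3 of 4 OH arrays above every C array. Without OH stomach replicate 2 it was 1.1 (adjusted p = 0.465). Reg3b was 1.15 higher (95% interval 0.10 to 2.20, adjusted p = 0.445, exact permutation p = 0.057). For 4 arrays against 4 the smallest two-sided p that permutation can give is 0.029.

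Of the remaining stomach differences, none passed the test. Reg3g was 0.64 higher in OH (adjusted p = 0.525), Lyz2 0.21 higher (adjusted p = 0.853) and Lcn2 0.21 higher (adjusted p = 0.897). Those of Pla2g2a (-0.58, adjusted p = 0.722), Defa5 (-0.18, adjusted p = 0.625) and Pigr A_44_P510738 (-0.14, adjusted p = 0.929) were below 0. The Defa5 difference was larger than the SD of either group (0.07 in C, 0.14 in OH; exact permutation p = 0.057). In Cy5 alone the Defa5 difference was -0.31 (limma adjusted p = 0.275). All Defa5 arrays of OH stomach lay below those of C stomach there, which gives the smallest p possible (exact permutation p = 0.029). For the other 10 probes the arrays overlapped in Cy5 alone. The share of all probes without overlap in Cy5 is not given, so no result for Defa5 is drawn from it. Without C stomach replicate 2 the Pla2g2a difference was -1.19 (limma adjusted p = 0.159).

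In middle intestine none of the 11 probes passed either, where 0.368% of all probes did, and the count at an unadjusted p under 0.05 was 10.5% of all probes (limma). Defa24 was 0.79 lower in OH, and all 4 OH arrays lay below all 4 C arrays in ratio (difference -0.79, 95% interval -2.08 to 0.51, adjusted p = 0.729, exact permutation p = 0.029). For comparison, 2.13% of all probes did not overlap in that direction. In Cy5 alone the arrays overlapped, with a difference of -0.33, and the reference signal of Defa24 was 0.45 higher on the OH slides (log2 scaled Cy3). Reg3g (-0.50, adjusted p = 0.687), Lyz2 (-0.48, adjusted p = 0.676), Reg3b (-0.32, adjusted p = 0.913), Pla2g2a (-0.52, adjusted p = 0.825) and Lcn2 (-0.28, adjusted p = 0.918) did not pass, and their arrays overlapped between the groups. The differences of Lyz2 and Pla2g2a were larger than the SD of either group (exact permutation p = 0.086 for each). In Cy5 alone they were -0.11 for Lyz2 and -0.17 for Pla2g2a, and scaled Cy3 of Lyz2 was 0.35 higher on the OH slide (limma adjusted p = 5.81e-05). Pigr A_44_P510738 was 0.84 higher in OH (95% interval -0.02 to 1.69, adjusted p = 0.493) in ratio but -0.04 in Cy5 alone, while its scaled Cy3 differed by -0.89 on the OH slide. The 95% interval of the Reg3g difference ran from -1.23 to 0.23 by ratio and from -3.20 to 3.70 in Cy5 alone.

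**Figure D5:**
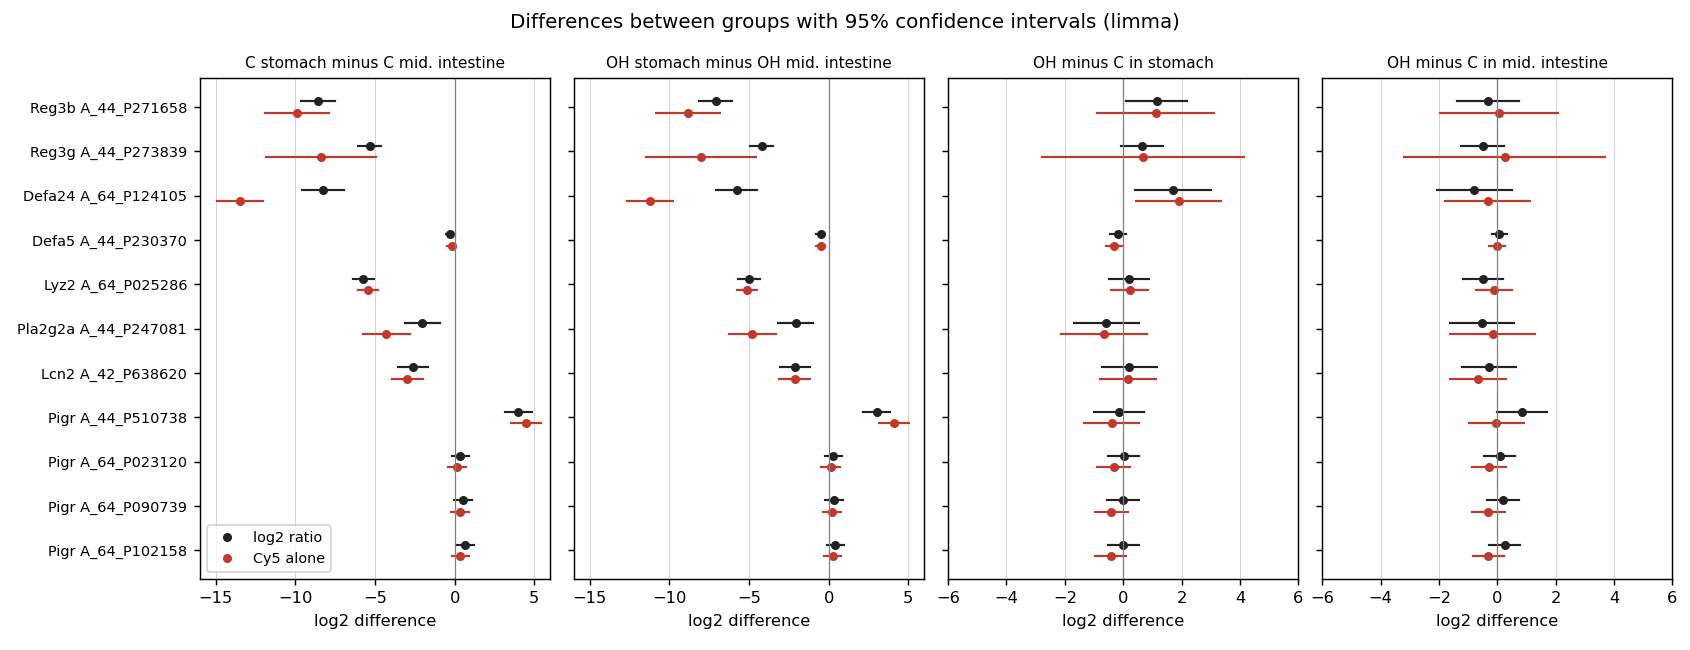
Log2 differences with 95% intervals (limma, 4 arrays a group) for 11 probes in 4 comparisons, by ratio (black) and by Cy5 alone (red); the x axes differ between tissue and treatment panels. The tissue differences of Reg3b, Reg3g, Defa24, Lyz2, Lcn2, Pla2g2a and Pigr A_44_P510738 stand off 0 by both measures, whereas Defa24 in stomach, at 1.71 in ratio, is the largest treatment difference.

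The treatment difference was also compared between the tissues. No probe of the 9 genes passed this test, nor did any other (0% of 21174 probes; 5.85% at an unadjusted p under 0.05 in limma). The largest differences between the OH effect in stomach and in middle intestine were those of Defa24 (2.49, limma adjusted p = 0.833), Reg3b (1.47, adjusted p = 0.836) and Reg3g (1.14, adjusted p = 0.836). Outside the 9 genes the one gene of the 6 defence lists that passed between treatments was Hp, haptoglobin, 0.58 higher in OH than in C middle intestine (limma adjusted p = 0.047).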

How the data were processed

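Two-colour Agilent SurePrint G3 Rat 8x60K arrays were hybridised by the authors with tissue RNA in Cy5 and the common pool in Cy3, with no dye swap. Per the file headers the scans were read with Feature Extraction 10.10.1.1 (10.7.3.1 per the labels) on the rn4 design. The deposited intensity columns hold background-subtracted, dye-normalised processed signals, with flags, and the authors' value table holds log10 ratios, equal to those of the scanner files on 15 of 16 arrays. Stomach and intestinal arrays correlated at 0.17 to 0.36 over all probes.

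Here log2 ratios of the processed signals were taken, outlier spots dropped and spots of a probe averaged. A probe was kept where all 4 arrays of at least 1 group were well above background in Cy5 and every group held at least 3 values, which left out 9193. A model with 4 group means over 16 arrays was fitted with limma 3.58.1 in R 4.3.3. On simulated data with a log2 change of 1 in 200 probes the test recovered 60% of them in C stomach against C middle intestine, and 94% at a log2 change of 2. Cy5 and Cy3 alone are the dye-normalised processed signals of 1 channel, scaled to each array's 75th percentile. Alternatives were normexp with loess (offset 50), scaling between arrays, other filters, a replicate block, Tukey's test and leaving out arrays. p-values measure the spread between rats of which some may share a litter. The 9 genes and all lists were chosen with earlier results of these data known. Genes were named by fixed rules: all probes of the 9 genes, at most 4 genes per list with the largest difference among those that passed, and the 3 nearest genes per member by root mean square difference of centred ratios; genes named outside these rules are marked in the text. Of 18864 RefSeq accessions 15606 were matched, as were all 12 probes, and promoters were matched for 7 of the 9 genes. Replicate numbers were not used to pair samples, and stomach and middle intestine arrays of a treatment may come from the same rats.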

Additional observations from a re-analysis of the deposited data

Results flagged for a closer look

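Of 96 sets of 4 arrays (each probe in each group, by ratio and by scaled Cy5), 3 held an array whose gap to the nearest other array, divided by the range of the 4, was above Dixon's value of 0.829, and 4.8 would be met by chance. Defa24 on the array of OH middle intestine replicate 3 had a log2 ratio of 7.24 beside 6.77 to 6.82 on the other 3, a gap of 0.893 of the range. Reg3a on the array of OH stomach replicate 4 stood apart in scaled Cy5 by a gap of 0.893 of the range. Reg3g on the array of C stomach replicate 4 had a scaled log2 Cy5 of -6.47, a gap of 0.842 of the range. Without OH middle intestine replicate 3 the Defa24 difference between OH and C middle intestine was -0.90 (limma adjusted p = 0.63).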

How the results depend on the processing

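Under 44 settings the number of probes of the 9 genes that passed stayed between 7 and 9 in C stomach against C middle intestine. It stayed between 6 and 9 in the OH tissues and at 0 in both treatment comparisons. Settings with a looser filter on dim probes also tested the Reg3a probe, and the count of 9 in the OH tissues includes it. In the setting with 1 value per gene, genes were counted in place of probes. Leaving out 1 array at a time gave 7 to 9 and 8 to 8. Reg3b, Reg3g, Defa24, Lyz2, Lcn2 and Pigr A_44_P510738 kept direction and passed under every setting in both tissue comparisons. Scaling ratios between arrays turned the Defa5 difference between the OH tissues from -0.51 to 0.29 (adjusted p = 0.812) and left Pla2g2a there at -2.48 (adjusted p = 0.0523). Defa5 passed between the C tissues without OH middle intestine replicate 3 (adjusted p = 0.04). Over all probes, OH against C in stomach gave 0 in the reported fit, 639 with no filter on dim probes, 709 by analysis of variance with Tukey's test of the study's methods, 37 in Cy5 alone, 9 with probes above background on at least 1 array and 311 without C stomach replicate 2. In middle intestine the reported 78 became 1 with the groups compared alone, 19 per gene, 160 with probes above background on at least 1 array, 269 with scaling between arrays, 662 in Cy5 alone, 936 by Tukey's test and 1378 with no filter, and 12 to 88 with 1 array left out. With the replicate number as a block 7 of the 11 probes passed between the C tissues, 8 between the OH tissues and none between treatments, and the 78 probes became 40. Deviations of same-numbered arrays from their group means correlated from -0.12 to 0.32 between the tissues of a treatment. Between treatments, which are different rats, they correlated from -0.40 to 0.51. Whether same-numbered arrays of stomach and middle intestine came from the same rat is not known here, so they were tested as unpaired. The causes were not tested.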
